A study of Mus musculus with 4 samples.

Results

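MED1 regions that lay inside protein-coding genes, away from the gene ends, and that consisted of exactly 3 abutting intervals numbered 4693 among the 22565 regions on chromosomes 1 to 19 and X. They were chosen by the measured positions of the deposited MED1 intervals: intervals that began exactly where the preceding one ended were joined, regions of 3 intervals were kept, and the midpoint had to fall inside a RefSeq protein-coding gene and more than 1 kb from every protein-coding gene end. The number of intervals and the place inside a gene are therefore part of the definition and are not results. The same joining gave 5636 regions of 3 intervals with the midpoint within 1 kb of a gene end and 3294 outside genes, and 3693 regions of a single interval inside genes, which serve as comparisons.

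MED1 is a subunit of Mediator, the multi-protein complex that carries signals from DNA-bound transcription factors to RNA polymerase II. It is recruited to promoters and to enhancers, and many enhancers lie within genes, either the gene they act on or a neighbour. In macrophages, lineage factors such as PU.1 and C/EBP proteins mark enhancers, and bacterial lipopolysaccharide (LPS), sensed by Toll-like receptor 4, brings NF-kB, AP-1 and interferon regulatory factors to them.

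The occupancy data came from RAW 264.7, a mouse monocyte/macrophage-like tumour line with no engineered allele named in the labels, either untreated (2 libraries) or exposed to LPS for 2 h (2 libraries). The LPS dose is given as 10 ng/mL in one label and as 100 ng/mL in the treatment protocol. Cells were crosslinked with DSG, a protein-protein crosslinker, and then with formaldehyde, before sonication and precipitation with a MED1 antibody. The deposited list was given for the series and names no library or condition for any interval, so every value below describes the list as a whole and untreated and LPS-treated cells were not compared. It gives positions only, with no height or read count, so depth is unknown. What the abutting intervals stand for is not stated: if they came from different libraries or conditions, middle and flank intervals would differ in condition, which was not tested and bears on every middle share below. Exons and introns were not told apart.

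The labelled cell type was set beside lists of genes. The lists were chosen with earlier results of these data known, so the counts are no independent check of the label. At least 1 such region lay inside 21 of 37 macrophage lineage and surface genes over 2 kb long, against 2 of 30 T and B lymphocyte genes, 2 of 31 hepatocyte and skeletal muscle genes and 5 of 38 neuronal genes. Over all 19190 protein-coding genes of that length the share was 16.5% (3158 genes). Macrophage genes that held regions included Runx1, a lineage transcription factor (6 regions), and Ptprc, which encodes CD45 (4 regions). Adgre1, which encodes the F4/80 surface antigen and spans 124.9 kb, held no MED1 region of any kind inside it.

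Some of the regions contain an annotated transcription start of the gene they lie in, and 4 of these starts are shown because they show starts in the middle interval and in a flank. They were picked after their values were seen. Each sequence is the 250 bases before the start, 5′ to 3′ on the gene's strand, from RefSeq (GRCm38.p6, the assembly of mm10). Runx1 has a start 128745 bp downstream of the gene's 5′ end, in the middle interval of chr16:92690353-92700360. Ptgs2, which encodes cyclooxygenase-2, starts in the middle interval of chr1:150098031-150108423. Il1b, which encodes interleukin-1 beta, starts in the downstream flank of chr2:129363236-129375311, and Dusp5, a MAP kinase phosphatase gene, in the downstream flank of chr19:53528208-53533165. Capitals mark matches to the searched motifs.
Runx1: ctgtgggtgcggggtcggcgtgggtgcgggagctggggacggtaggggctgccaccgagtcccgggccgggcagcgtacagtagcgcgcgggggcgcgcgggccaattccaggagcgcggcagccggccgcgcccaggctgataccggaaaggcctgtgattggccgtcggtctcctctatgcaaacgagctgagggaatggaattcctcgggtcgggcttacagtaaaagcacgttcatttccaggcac
Il1b: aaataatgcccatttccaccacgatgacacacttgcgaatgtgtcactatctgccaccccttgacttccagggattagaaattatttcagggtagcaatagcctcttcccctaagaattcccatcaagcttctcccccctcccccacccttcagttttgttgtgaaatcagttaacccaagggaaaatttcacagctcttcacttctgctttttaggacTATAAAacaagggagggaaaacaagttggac
Dusp5: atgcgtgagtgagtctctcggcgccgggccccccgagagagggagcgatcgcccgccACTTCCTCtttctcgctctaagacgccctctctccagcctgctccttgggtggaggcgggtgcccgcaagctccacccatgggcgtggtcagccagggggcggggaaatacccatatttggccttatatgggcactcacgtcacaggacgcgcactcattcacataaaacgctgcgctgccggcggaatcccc
Ptgs2: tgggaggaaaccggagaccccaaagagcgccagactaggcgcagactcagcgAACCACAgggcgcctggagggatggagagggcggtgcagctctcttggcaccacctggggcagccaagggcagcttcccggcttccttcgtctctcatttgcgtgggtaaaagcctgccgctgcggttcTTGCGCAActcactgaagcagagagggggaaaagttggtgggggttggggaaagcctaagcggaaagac

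The letters searched, on both strands, were GAGGAAGT for PU.1/ETS, TGANTCA for AP-1, TTGCNNAA for C/EBP, GGAANTTCC for NF-kB, AANNGAAAC for IRF, TGTGGTT for RUNX, CACGTG for the E-box and TATAAA for the TATA box, none of which contains another. The Runx1 sequence held no match. The Il1b sequence held TATAAA beginning 31 bases before the start, on the gene's strand, a run found in 11.7% of the same windows at all 21045 annotated starts of protein-coding genes. The Dusp5 sequence held the PU.1/ETS letters 193 bases before the start on the opposite strand, and the Ptgs2 sequence held a C/EBP match 69 bases and a RUNX match 198 bases before it. Of the 1359 host starts that lay in the regions, 3.83% had the PU.1/ETS letters (95% Wilson interval 2.93 to 4.98), against 2.25% of all starts and 2.54% of those in 3-interval regions at gene ends. The E-box was found at 8.46% of them and 6.70% of all starts, and C/EBP at 9.05% and 9.18%. AP-1 (5.15% and 6.17%), IRF (4.27% and 4.63%), RUNX (2.5% and 3.84%) and NF-kB (0.442% and 0.941%) had lower shares than all starts. The Wilson intervals of PU.1/ETS, E-box (7.10 to 10.1) and RUNX (1.8 to 3.48) left out the share of all starts, and those of the other motifs included it. The 1359 starts lay in 1111 regions, so windows of neighbouring starts can overlap and count 1 match more than once. The intervals treat the starts as separate and can be too narrow, and all starts include those in the regions. Against starts in 3-interval regions at gene ends, the order differed for some motifs: AP-1 (3.72%), C/EBP (6.82%) and IRF (4.02%) were lower there than in the regions inside genes, and E-box (9.34%), RUNX (2.93%) and NF-kB (1.005%) were higher. The median GC content of the windows was 59.6% in the regions, 55.6% over all starts and 60% at gene ends, and its part in these shares was not tested. Each match is a run of letters and not a measured binding site. The Wilson intervals here and below cover at most counting error, since regions, starts and genes of 1 list are not replicates of a condition.

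The middle interval made up most of the width in most of these regions. Across the 4693, the middle interval held a median of 76.1% of the width (95% interval of the median 75.4 to 76.8, quartiles 60 and 87.0, range 5.36 to 99.9). It was the widest of the 3 in 89.6% of regions and held at least 50% of the width in 85.2%, leaving 695 regions (14.8%) below 50%. In 99 regions (2.11%) it held under 25%, and in 806 (17.2%) at least 90%. The median region was 2500 bp wide (quartiles 1700 and 3911, range 372 to 28254), with a middle interval of 1696 bp and flanks of 213 and 215 bp on the sides of lower and higher coordinate. Neither side was favoured: the lower-coordinate flank was the wider in 50.7% and the higher-coordinate flank in 49.1%. A flank under 50 bp occurred in 31.2%.

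The same measure was higher at gene ends and alike outside genes. At gene ends the middle interval held a median of 80.8% of the width, above the value inside genes on each of the 20 chromosomes, and 6.07% of those regions had it below 50%. Outside genes the median was 76.1% and the share below 50% was 14.0%. Chromosome medians inside genes ran from 73.1% on X to 80.7% on chromosome 13. On either side of the 1 kb limit of the definition, the 498 regions with the midpoint 1 to 1.5 kb from a gene end had a median middle share of 79.5% and a median width of 3068 bp, and the 990 excluded ones at 0.5 to 1 kb had 79.6% and 2688 bp.

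**Figure D1:**
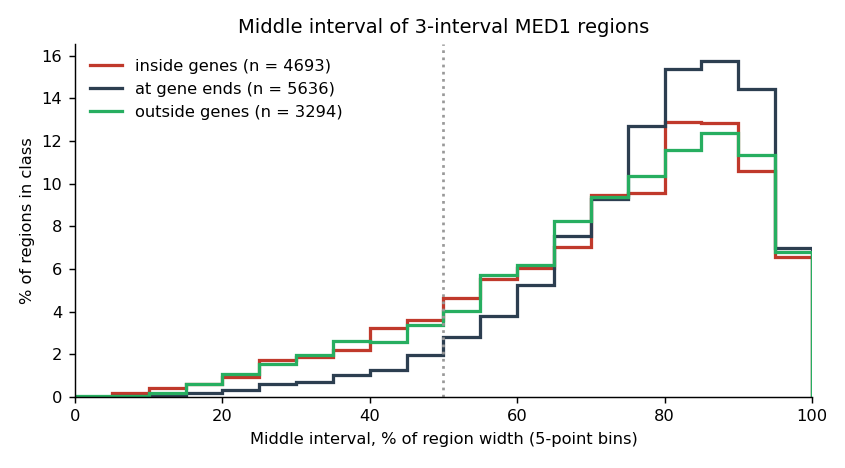
The middle interval's percentage of the region width (horizontal, in 5-point bins) against the percentage of regions of each class (vertical) for 3-interval regions inside genes, at gene ends and outside genes; the dotted line marks 50%. The curves inside and outside genes lie close together, and the curve for gene ends is lower on the left of the line, where it holds 6.07% of its regions against 14.8% inside genes.

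The middle share was lower in wider regions. In the narrowest of 4 equal groups by width (up to 1700 bp) the median middle share was 79.7% and 3.07% of regions were below 50%. The following groups had 77.9% and 8.70%, then 73.9% and 18.9%. Among the 1172 regions wider than 3911 bp the median was 69.8%, and 28.6% were below 50%. Width entered the share as its denominator, so the trend is a description of how the intervals divide the regions.

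The widest regions included both extremes. The widest of all, inside Sfi1 on chromosome 11, was 28.3 kb wide and almost entirely middle interval (99.4%), and 2 further regions of this gene had middle shares of 99.9% and 99.7%. Rasgef1b, a Ras guanine nucleotide exchange factor gene, followed with 27.7 kb, of which the middle interval held 13.2% and the flank of higher coordinate 21.9 kb. Rassf4, a Ras-association domain gene, had 26.9 kb with 7.66% in the middle. Itga4, which encodes an integrin alpha chain, had 22.8 kb with 81.8% in the middle, and Sdc4, a syndecan gene, 24.6 kb with 26.8%. Malt1, a paracaspase that signals to NF-kB, had 22.1 kb with 17.8%, and Atf3, a stress-induced transcription factor gene, 20.6 kb with 51.3%. Aopep (91.2%), BC005537 (31.3%) and Rgl1 (92.1%) completed the 10 widest. Of regions at least 2 kb wide, the lowest middle shares were in 3110082I17Rik (5.36%), Mre11a (6.27%), Rassf4, Dcbld2 (7.98%) and N4bp1 (8.57%). The highest outside Sfi1 were in Prpf38b (99.8%), Gpr132 (99.7%) and Hmga1 (99.6%). With no height or control in the list, background calls cannot be told apart among these extremes, the Sfi1 regions included.

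An annotated start of the host gene lay within 1111 of the 4693 regions (23.7%, 95% Wilson interval 22.5 to 24.9). No annotated start of any gene lay in 2594 (55.3%), and 75 held only the start of another gene. The remaining 913, of which 145 lie on chromosome 18, had a host without an entry in the table of starts and were not assessed. The share with a host start was 12.9% when the whole region had to lie inside the gene and 14.3% with a gene-end distance of 2.5 kb. Starts on chromosome 18 were not analysed here, and the table covered 79.9% of protein-coding genes. Leaving out that chromosome, 26.6% of the regions held an annotated start, against 79.4% of 3-interval regions at gene ends, 10.5% of those outside genes and 6.36% of single-interval regions inside genes.

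Host starts sat in the middle interval. Of the 1359 host starts, 1273 (93.7%, 92.2 to 94.9) fell there, while the middle intervals made up 70.7% of the summed length of the start-holding regions. A host start within 1 kb of the gene's 5′ end lay in 452 of the 1111 start-holding regions. In 698, some of them the same regions, at least 1 host start lay over 1 kb inside the gene, at an alternative start. Examples were Fhit, with a start 708603 bp from the gene's 5′ end, Foxp1, a forkhead transcription factor gene (494448 bp), and Pde4b, a cyclic AMP phosphodiesterase gene (482728 bp). Among genes of the lists they were Rapgef2 (140799 bp), Runx1, Ptprj (101520 bp) and Dock10 (93413 bp). Start-holding regions were wider (median 3464 bp) than start-free ones (2265 bp), with a median middle share of 79.5% against 75.5%. The definition sets part of this width, since a region that holds the gene's 5′ end must reach over 1 kb to either side of its midpoint.

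Position along the host gene differed between start-holding and start-free regions. The split itself sets part of this, since the host starts lay a median of 1825 bp from the gene's 5′ end. The midpoint lay in the 5′ 50% of the gene in 65.6% of the 3744 regions with 1 host of known strand. This share was 86.8% for the 1094 with a host start and 57.0% (55.1 to 58.9) for the 2575 without any. The 5′-most 10% of the gene length held 42.6% of the start-holding and 9.48% of the start-free regions, and the 3′-most 10% held 0.914% and 6.25%. Start-free regions lay a median of 31.0 kb from the 5′ end, in hosts with a median length of 93.0 kb. The median distance from the nearest gene end over all regions was 11030 bp, where the definition requires over 1 kb. It was 17260 bp with a limit of 2.5 kb and 17600 bp with the whole region inside.

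The flanks were unequal around starts, and the definition favours this near the gene's 5′ end. Regions with a host start within 1 kb of that end (452 of 1111) have their midpoint downstream of that start. How much of the difference this sets was not tested. In gene direction, the downstream flank was the wider in 63.5% of the start-holding regions (60.6 to 66.3), with a median of 328 bp against 175 bp upstream. In start-free regions it was the wider in 50.6% (48.6 to 52.5), with medians of 211 and 200 bp. Among the regions whose middle interval held under 50%, the downstream flank was the wider in 126 of 159 with a host start (79.2%) and in 198 of 376 without a start (52.7%).

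Of the 3158 host genes, 2285 held 1 region, 522 held 2 and 351 held 3 or more. Without regions that had an interval under 50 bp, 199 genes held 3 or more. The 351 genes contained 30.0% of the regions, and 7 genes held at least 10. Hosts were long, with a median of 46.3 kb against 18.2 kb for genes over 2 kb without a region. The share of genes with a region rose from 2.91% at 2 to 5 kb to 34.2% at 200 to 500 kb and was 25.6% above 500 kb. Per length it fell instead: the number per Mb of gene interior (the gene less 1 kb at each end) dropped from 19.2 to 0.754, with 4.71 over all genes. In the shortest genes 70.0% of the regions held a host start, and in genes above 500 kb 6.21%. The X chromosome had 1.29 regions per Mb of gene interior, and the autosomes between 3.70 (chromosome 18) and 6.83 (chromosome 11).

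The 15 genes with the most regions were Sgms1, Baz2b, Foxp1, Fndc3b, Tcf4, Fnbp1, Maml3, Elmo1, Lpp, App, Arid1b, 2900026A02Rik, Aff1, Aopep and Arhgap26. Sgms1, which encodes a sphingomyelin synthase, spans 267.2 kb on the minus strand of chromosome 19 (32122727 to 32389885). Its 13 regions lay from 2.97 to 217 kb downstream of the 5′ end, 12 of them without a host start, with widths of 1.22 to 7.33 kb and middle shares of 49.1 to 97.3% (median 78.3%). Baz2b, a bromodomain gene, held 12 from 34.1 to 240.2 kb along its 310.6 kb, all with a middle share above 50%. Foxp1 held 12 over 597.4 kb, of which 2 contained a host start, with middle shares of 21.2 to 95.9%. Fnbp1, which encodes a membrane-curving F-BAR protein that binds formins, was the densest of the 15, with 10 regions in 119.2 kb (8.39 per 100 kb). Fndc3b held 11, Tcf4, an E-protein transcription factor gene, 11, and Maml3, a co-activator of Notch, 10.

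The other genes of that group had different interval make-ups. Elmo1, a partner of Dock proteins in engulfment of cells, and Lpp, a focal-adhesion LIM protein gene, held 9 each and no host start in any. The 9 in Lpp lay 206 to 586 kb from the 5′ end, and their median middle share was 62.1%. The 8 in App, the amyloid precursor protein gene, had middle shares between 71.5 and 90.3%. The 7 in 2900026A02Rik had a median of 51.5%, with 2 below 25%. Arid1b, a subunit gene of the BAF chromatin remodeller, held 8. Aff1, which encodes a scaffold of the super elongation complex, held 7, as did Aopep, an aminopeptidase gene, and Arhgap26.

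Among 14 gene lists, the share of genes with a region ranged from 6.45% to 67.4%. It was 31 of 46 for actin, adhesion and integrin genes and 22 of 43 for phosphoinositide and tyrosine kinase signalling. Lipid, lysosome and metabolism genes had 20 of 39, primary LPS response genes 19 of 39, Toll-like receptor and NF-kB signalling genes 18 of 45, histone acetylation genes and readers 12 of 35 and housekeeping genes 8 of 26. Secondary and interferon response genes had 6 of 33, Mediator subunits 5 of 32 and the 2-ketoacid dehydrogenase and acetyl-CoA list 3 of 25. With the whole region inside the gene, the share fell to 12.8% for primary LPS response, 7.69% for housekeeping and 9.09% for secondary response genes, against 12.2% over all genes. Because long genes hold more, the same count was taken for genes of at least 20 kb, where the share over all genes was 24.3%. The macrophage lineage list then had 14 of 17, primary LPS response 5 of 7, actin and adhesion 27 of 37, housekeeping 2 of 6 and neuronal genes 4 of 35. Secondary response had 4 of 13, Mediator subunits 4 of 15, the 2-ketoacid dehydrogenase list 3 of 16, lymphocyte genes 2 of 17 and hepatocyte and muscle genes 2 of 14.

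Lists also differed in whether their regions held a start. A region without a host start lay in 11.2% of all genes over 2 kb that are in the table of starts. This held for 14 of 26 macrophage lineage genes, 18 of 38 actin and adhesion genes and 10 of 31 lipid and lysosome genes, but for 3 of 31 primary LPS response and 1 of 20 housekeeping genes. Per Mb of gene interior, primary LPS response genes (40.1) and housekeeping genes (33.6) had the most regions, in short genes (medians 7.72 and 5.44 kb). Over all genes of 5 to 10 kb the number was 12.7. Macrophage lineage genes had 27.2, actin and adhesion genes 16.4 and neuronal genes 0.585.

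Regions inside LPS response genes had the lowest middle shares of the 14 lists. In the 19 regions inside primary response genes the middle interval held a median of 40.8% of the width, and 12 were below 50%, where the share over all regions was 14.8%. In 8 of them it held under 25%, against 2.11% over all. These regions were wide (median 6.42 kb), but the 16 that exceeded 3911 bp included 11 below 50%, against 28.6% of all regions of that width. The 6 regions inside secondary and interferon response genes had a median of 25.7%, with 4 below 50%. Medians of the other lists lay between 58.9% (2 regions in lymphocyte genes) and 85.7% (neuronal). Housekeeping genes, whose regions were also wide (5.84 kb), had 85.0% and 1 of 8 below 50%, and lipid and lysosome genes 84.1% and 2 of 30.

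**Figure D2:**
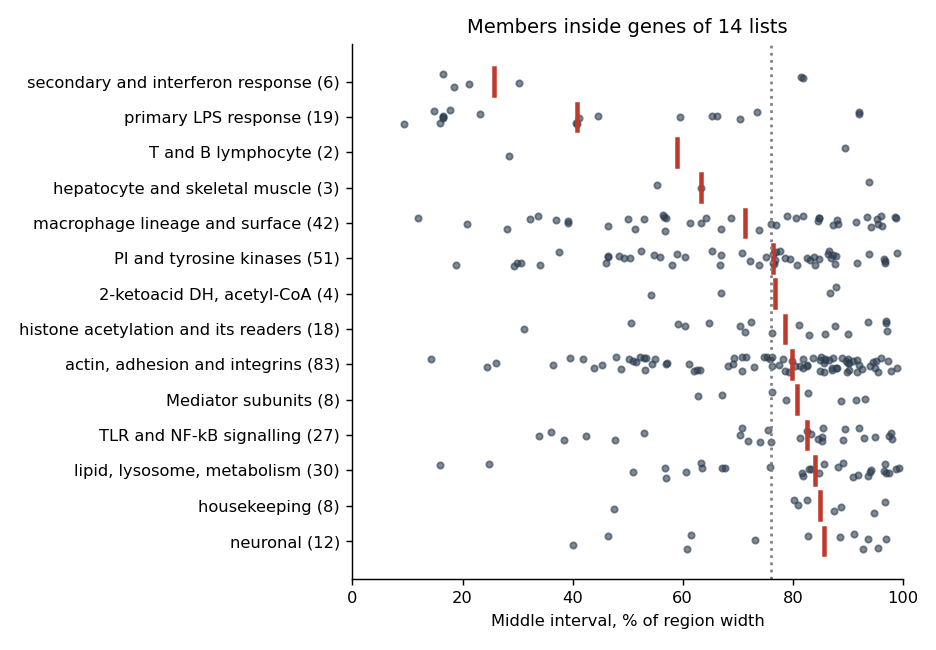
Middle interval as a percentage of region width (horizontal) for each region inside a gene of the 14 lists (rows, number of regions in brackets); points are regions, red bars list medians and the dotted line the median of all 4693 (76.1%). The secondary and primary LPS response lists have the lowest medians, 25.7% and 40.8%.

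Regions at the ends of the same genes did not all show this. At gene ends of primary response genes the median middle share was 78.9% over 13 regions, with 2 below 50%, near the 80.8% of all gene-end regions. At the ends of secondary response genes it was 45.5%, with 7 of 13 below 50%. The definition sets part of the difference between gene ends and insides, since a wide downstream flank moves a promoter region's midpoint into the gene. How much of the difference this sets was not tested. Most of the primary response regions inside genes held a host start, with some not assessed, and 6 of the 19 covered the whole gene. When the entire region had to lie inside the gene and over 1 kb from every gene end, 12.8% of primary response genes still held one, against 48.7%, and 3 of the 5 remaining regions were below 50% (60%, Wilson interval 23.1 to 88.2).

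The individual regions showed a wide flank on the downstream side. At Il1b the 12.1 kb region divided into 1353 bp upstream, 1138 bp middle and 9585 bp downstream, so that the middle held 9.42%, and the region covered the whole 6.6 kb gene. The Ptgs2 region, 10.4 kb, divided into 1078, 1662 and 7653 bp (16.0%). The region at Sod2, which encodes mitochondrial superoxide dismutase, divided into 384, 1579 and 7630 bp (16.5%). In each of these the downstream flank was the widest of the 3 intervals. The region at Plk2, a polo-like kinase gene, divided into 226, 1498 and 7350 bp (16.5%) and that at Dusp5 into 188, 733 and 4037 bp (14.8%). Il1a, which encodes interleukin-1 alpha, differed in having flanks of 1116 and 1457 bp around 506 bp (16.4%) and no annotated start. The downstream flank was the wider in 13 of the 14 primary response regions of known strand, and in all 7 of those that were below 50%. Over all regions of known strand that share was 54.3% (2034 of 3744), and 60.6% (332 of 548) among those below 50%. In the secondary list it was 4 of 6, and 4 of 4 below 50%. Most of these primary list regions, and all 4 low secondary ones, held a host start. Over all start-holding regions the share was 63.5% (695 of 1094), and 79.2% (126 of 159) among those below 50%. The definition favours a wide downstream side where a host start lies near the gene's 5′ end.

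The primary list also holds regulators of NF-kB. Tnip1, an inhibitor of NF-kB signalling, had a middle share of 40.8%, Nfkbiz, a nuclear IkB protein gene, 41.2%, and Nfkb1, which encodes p105/p50, 44.6%. Malt1 (17.8%), Ehd1, an endocytic recycling ATPase gene (23.1%), and Egr1, an immediate-early zinc-finger factor gene (40.6%), were also below 50%, without an assessed strand. Above 50% were Nfkbid (59.5%), Btg2 (65.3%), Nfkbie (66.2%), Egr2 (70.5%), Nfkb2 (73.5%), Bcl3 (92.0%) and Tlr2 (92.1%). The Tlr2 region covered its whole gene like that of Il1b, yet consisted of 11328 bp of middle interval with flanks of 1 and 968 bp. In the secondary list, Cmpk2 (16.5%), Ifih1, a cytosolic RNA sensor gene (18.4%), Ifit2 (21.1%) and Saa3, a serum amyloid A gene (30.3%), were low, each with the wider flank downstream. Stat3 (81.5%) and Irf8, a lineage and interferon-response transcription factor gene (81.8%), were high. Jak2 and Trim30a, both over 50 kb long, held none of these regions but 1 other MED1 region each.

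**Figure D3:**
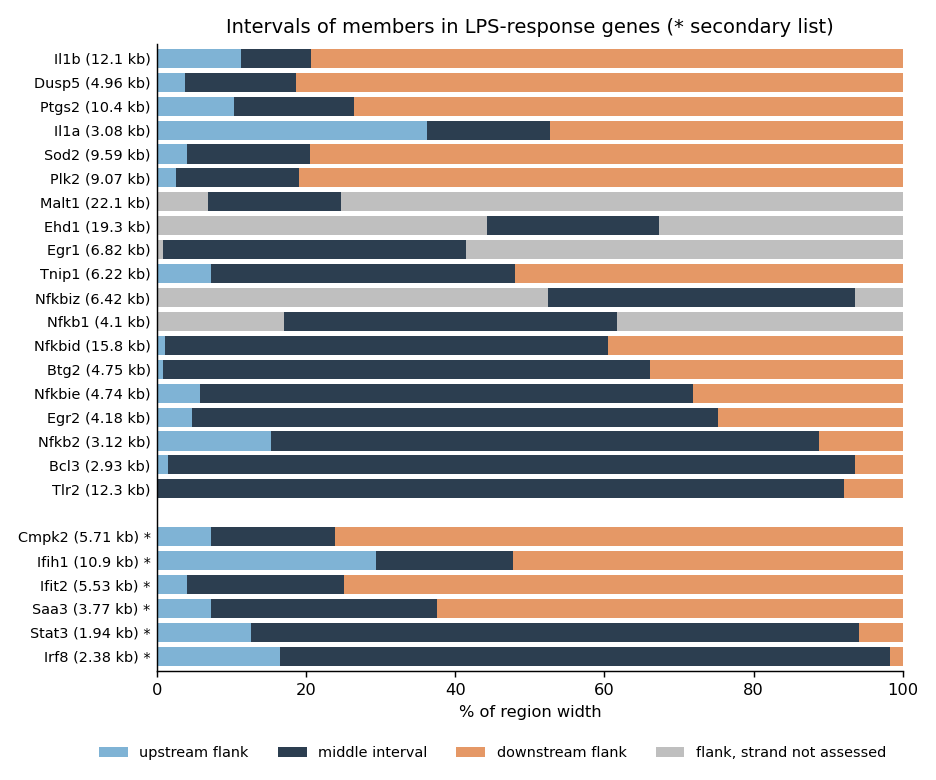
Make-up of the 25 regions inside primary (upper block) and secondary (lower block, asterisks) LPS response genes: percentage of the region width (horizontal) in the upstream flank, the middle interval and the downstream flank, with grey flanks where the strand was not assessed and the region width in brackets. The downstream flank takes up most of the width at Il1b, Dusp5, Ptgs2, Sod2, Plk2, Cmpk2 and Ifit2, and the middle interval most of it at Tlr2 and Bcl3.

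Macrophage lineage genes held 42 regions with a median middle share of 71.3%, 9 of them below 50%. The 6 in Runx1 lay between 1.69 and 205 kb from its 5′ end, were 2.98 to 10.0 kb wide and had middle shares of 46.5 to 84.7%. The 4 in Ptprj, a receptor tyrosine phosphatase gene, had middle shares of 12.0, 28.0, 36.9 and 50.1%. The 3 in Cd36, a scavenger receptor gene, were high at 87.4, 91.4 and 95.5%. Spi1, which encodes PU.1, held 2, of 14.8 kb (96.2%) and 10.8 kb (68.7%), and Csf1r, the macrophage colony-stimulating factor receptor gene, held 2, of 19 kb (63.3%) and 5.06 kb (20.9%). Mitf, a lineage transcription factor gene, held 3 with 88.3, 56.7 and 32.2%.

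Toll-like receptor and NF-kB signalling genes, which carry the signal from the receptor towards the nucleus, held 27 regions with a median of 82.6% and 5 below 50%. Map3k14, the NF-kB-inducing kinase gene, held 4 (75.5 to 94.9%), Irak3 3 (38.4 to 81.3%), Map3k5 2 (89.4 and 98.0%) and Mapk14 2 (83.3 and 85.4%). Map2k6 and Traf3, of 126.4 and 100.8 kb, held none of these regions. Map2k6 also held no other MED1 region inside it, and Traf3 held 2 others. The lowest middle shares were in Irak2 (33.9%), Tank (36.1%), Irak3 (38.4%) and Tbk1 (42.5%).

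By count, genes of the cytoskeleton and of kinase signalling held the most regions of the 14 lists, in long genes (medians 58.0 and 66.2 kb). Per Mb of gene interior they had 16.4 and 10.3, below primary LPS response genes (40.1), which are shorter. The number per Mb falls with gene length: it was 6.17 over all genes of 50 to 100 kb, and 4.71 over genes of every length. Actin and adhesion genes had 83 with a median of 79.8% and 10 below 50%, led by Elmo1, Lpp, Myo1e, an unconventional myosin gene (7), and Pxn, the paxillin gene (5). Diaph2 and Fmnl2, both formin genes, held none, and no other MED1 region lay inside them. Phosphoinositide and tyrosine kinase genes had 51 with a median of 76.4%, led by Itpr2, an inositol trisphosphate receptor gene (5), Ptk2b (5) and Inpp5d, which encodes SHIP1 (4). Prkce and Prkca, of 490.1 and 410.5 kb, held none of these regions, but 2 and 1 other MED1 regions.

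The smaller lists held fewer. Mediator's own genes held 8 regions, none below 50%: 3 in Cdk19 and 2 in Med13l, both of the kinase module, and 1 each in Ccnc, which encodes cyclin C, Med10 and 1 further gene. Among histone acetylation genes Hdac9 held 4 and Hdac4 and Kat6b 2 each. In lipid and lysosome genes, Abcg1, a cholesterol exporter gene, Alox5ap, which encodes the 5-lipoxygenase-activating protein, and Pla2g4a, a phospholipase gene, held 3 each. Alox5 held 2, and Rora and Mertk none. Rora also held no other MED1 region inside it, and Mertk held 1 other. Acss2 and Acly, both of acetyl-CoA synthesis, held 2 and 1, and Cs, citrate synthase, 1. The housekeeping regions included those at Actb (15.5 kb, 82.5%), B2m (13.2 kb, 87.5%), Gapdh (5.36 kb, 81.0%) and Pgk1 (5.03 kb, 88.8%). Regions in genes of other cell types were few: Cacna1a held 4, Ank2 and Dlg2 3 each and Rbfox1 1, Blnk and Lck 1 each, Ryr1 2 and Hnf4a 1.

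Another MED1 region lay within 10 kb of 2848 of the 4693 regions (60.7%, 59.3 to 62.1), compared with 42.4% of 3-interval regions at gene ends and 66.6% of those outside genes. The nearest one was another 3-interval region in 61.8% of these cases and a single-interval region in 32.5%. It lay inside a gene in 67.0% and at a gene end in 23.8%. Regions of 3 intervals were also most of the list, with 4693 inside genes, 5636 at gene ends and 3294 outside among 22565. No share over all regions is given for the place of the nearest region. The midpoint fell in an annotated long non-coding RNA gene as well in 305 regions (6.5%), and no such share is given for other regions. MicroRNA hairpins from RefSeq lay inside 23 regions, 17 of them in the middle interval, including Mir3109 in Anxa2, Mir3092 in Fndc3b and Mir1932 in Rnf213. This is near the mean of 71.9% of the width that the middle interval held over all 4693 regions. Mir199a-1 in Dnm2, the dynamin-2 gene, lay in the interval of lower coordinate.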

How the data were processed

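MED1 ChIP-seq libraries of RAW 264.7 cells (untreated, 2; LPS, 2) were summarised by the authors as 1 list of 53764 intervals. Per the submitters' processing notes, Bowtie, SAMtools, MACS2 2.2.6 and the build mm10 were used; the sources used here do not give the settings, control, pooling or the step that made abutting intervals. The authors' deposited score column holds 0 throughout, and the list has 0 columns of other samples. Depth per library is unknown.

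Abutting intervals were joined and placed on RefSeq genes (GRCm38.p6), with 1-based coordinates. Gene strand and starts came from RefSeq's promoter table, which covered 79.9% of protein-coding genes and was not used for chromosome 18. Joining and placement were tested on simulated data (400 of 400 regions recovered). The regions and the 15 gene lists (552 entries, 549 found) were chosen with earlier results of these data known. Values are counts, medians and Wilson 95% intervals; no test was made, because the list holds no replicates. The comparison of untreated with LPS-treated cells was not made. The planned motif search in middle intervals was replaced by one in promoters.

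Genes named by rule were the 15 with the most regions, up to 4 per list with the most and up to 2 over 50 kb without one, the hosts of the 10 widest regions, and of the 5 highest and 5 lowest middle shares at 2 kb or wider. Some results are not reported here, including those of 1 list. All other named genes and the 4 promoters were chosen after their values were seen. Alternatives changed the gene-end distance, joining, small intervals, overlapping hosts, clusters and start-holding regions. The work used matplotlib 3.10.9, scipy 1.17.1, pandas 2.3.3 and numpy 2.4.6 under Python 3.11.15.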

Additional observations from a re-analysis of the deposited data

How the results depend on the processing

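The number of regions kept within 1.5 times of the reported one under each alternative. With a gene-end distance of 2.5 kb, the median distance from a gene end was 17260 bp, 12.3% of genes held a region, 60.3% of regions lay in the 5′ 50% of the gene and 14.3% held a host start. With the whole region inside, these were 17600 bp, 12.2%, 59.7% and 12.9%; the middle was the widest in 91.3% and held at least 50% in 86.5%, and 12.8% of primary LPS and 7.69% of housekeeping genes held a region. Without regions that had an interval under 50 bp, the median distance was 11680 bp, the median middle share 70.8%, the middle was the widest in 86.8% and held at least 50% in 80.4%, 12.3% of genes held a region and 199 genes held 3 or more. Without the largest 5% of clusters the corresponding shares were 91.4%, 87.2% and 14.6% of genes, and 53.4% had another region within 10 kb. Without regions known to hold a host start, an alternative added after seeing the data, the median distance was 15850 bp and the middle share 75.3%. In this alternative 12.1% of genes held a region, 56.8% of regions lay in the 5′ 50% and 63.0% had another region within 10 kb. It kept the 913 regions not assessed for starts, so start-holding regions may remain. Of the few primary LPS regions left, mostly not assessed for starts, 87.5% were below 50% (Wilson interval 52.9 to 97.8). Among genes of at least 20 kb, 82.4% of macrophage lineage and 71.4% of primary LPS genes held a region. Joining across gaps of up to 100 bp and keeping regions inside exactly 1 gene left the values within their intervals. A motif window of 150 bases lowered every motif share and kept PU.1/ETS above all starts (2.65% and 1.5%). No paired analysis was possible because the list names no library, so leaving out each replicate and the replicate block were not run; the motif window in middle intervals was not run for lack of a genome.

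The list's intervals carry no height, control or condition, so background calls and responses to LPS cannot be told apart from it. Regions, genes and starts are not replicates, and the list genes' regions are few. Whether the 3 abutting intervals differ in library or condition was not tested.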
